A study of Mus musculus with 16 samples.

Results

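The 28 genes described here encode enzymes of cholesterol synthesis and the proteins that control it through the transcription factor SREBP2. They were taken by gene symbol from the deposited table and kept where their mean level was at least 1 CPM, the count scaled to library size, over 15 of the 16 libraries. All 28 of the listed genes, out of 53801 in the table, met that level, and all 28 passed the low-count filter that left 22322 genes for testing. By role there were 7 enzymes of the mevalonate route, 12 enzymes from squalene to cholesterol, 1 enzyme of an isoprenoid side branch (Ggps1), 6 genes of SREBP2 control, and a pair that act on sterol transport and receptor turnover (Stard4 and Mylip).

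RNA was sequenced from oligodendrocytes, the glia that make myelin, which were drawn from the brains of male mice by magnetic activated cell sorting. The 4 groups were C57BL/6J Jcl wild type on the normal control diet (WT_NCD, libraries 4, 5, 11 and 12) or on the high-fat diet (WT_HFD, libraries 2, 3, 15 and 16), and homozygous App NL-G-F/NL-G-F animals on the control diet (App_NCD, libraries 537, 538, 545 and 553) or on the high-fat diet (App_HFD, libraries 547, 559, 560 and 561). Fat gave 12.5% of energy in the control diet and 60.0% in the high-fat diet, and mice ate their diet from 2 to 8 months of age, when all were sampled. The App allele was knocked into the mouse's own locus, with a humanised amyloid-β sequence and the Swedish, Beyreuther/Iberian and Arctic mutations. These mice were kept as an inbred line while the wild type was bought in, so line and origin cannot be told apart from the App allele. The labels do not say outright that each library is a separate mouse, so p-values measure the spread between these libraries.

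Cells build cholesterol from acetyl units, which the mevalonate route turns into isoprenoids and which are then joined to squalene, closed into the ring sterol lanosterol and trimmed step by step. SREBP2 is held in the endoplasmic reticulum by Scap and the Insig proteins while sterols are plentiful, and when they run low it moves to the Golgi, is cut free by the proteases of Mbtps1 and Mbtps2, and switches on nearly every gene of the route. Oligodendrocytes make large amounts of cholesterol because myelin is rich in it and the blood-brain barrier keeps plasma lipoproteins out.

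Library totals ran from 64538297 to 217925484 counts. They were 98588561 to 217925484 in WT_NCD and 69772745 to 101709022 in App_NCD. On the high-fat diet they were 90220118 to 101737328 in WT_HFD and 64538297 to 84114322 in App_HFD. Depth thus ran lower in App, without overlap on the high-fat diet. App_NCD 553 stood apart, with 39.4% of counts from mitochondrial genes against 1.22% to 4.62% in the other 15 libraries and with 18928 genes detected against 27151 to 30617; it was left out of the tests below, and its values are given apart from them. The factor that scales the total of App_NCD 553 (TMM) was 0.476, against 0.948 to 1.05 in the other 15, which raises all its CPM. Where its values rank among the other libraries therefore depends on this scaling. WT_NCD 11 had the lowest mitochondrial share (1.22%) and the highest level of the 15 libraries for 12 of the 28 genes. All 20 oligodendrocyte markers were well expressed, with means of 128 CPM and more, while 5 of 8 neuronal markers (Rbfox3, Slc17a7, Gad1, Gad2 and Nefl) had means under 1 CPM. Microglial markers were also present, with means of 33.3 to 2107 CPM over the 12 genes. The level of App itself was 2225 to 2646 CPM in the 7 App libraries tested and 2490 to 4279 CPM in wild type; the knock-in changes bases within the gene, so this level does not check the labels.

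Levels of different genes are compared here only as CPM per kilobase of exon, in WT_NCD (mean ± SD, n = 4). Insig1, which retains SREBP2 and is itself an SREBP2 target, had the highest at 51.7 ± 4.56, followed by Hmgcs1, the synthase that makes the precursor of mevalonate, at 51.0 ± 3.26. These did not differ beyond their spread. Next came Srebf2, which encodes SREBP2, at 33.8 ± 4.09, Msmo1, a methylsterol oxidase, at 28.7 ± 1.72, and Sc5d, a late desaturase, at 23.1 ± 2.63. At the low end stood Stard4, a cytosolic cholesterol carrier, at 3.44 ± 0.635 and Hsd17b7, a sterol ketoreductase, at 3.75 ± 0.109, and these also overlapped. The enzymes of the route thus spanned a wide range, with Lss, which closes the sterol ring, at 5.49 ± 0.536 and Mvk, mevalonate kinase, at 6.36 ± 1.12.

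Promoter windows of 300 bases, from 250 before to 50 after the annotated start, were found for 24 of the 28 genes in the RefSeq table (build GRCm38.p6). The core of the sterol regulatory element that SREBP2 binds was searched as TCACNCCAC, and the site of its partner NF-Y as CCAAT, each on both strands; the motifs do not overlap each other in the windows shown. CCAAT was in a window of 20 of the 24 genes (83.3%), against 41.1% of all 27025 genes in the table. TCACNCCAC was in 1 of the 24 (Hmgcs1, 4.17%), against 1.44% of all genes. A match is a description of letters, not a binding site. The 3 upstream stretches printed here belong to genes whose levels differed between genotypes on both diets, 2 of them lower and 1 higher in App; Hmgcs1 was shown by rule as the match to TCACNCCAC, and Lss and Mylip were chosen after their values were seen. They lie at chr13:119690101-119690350, chr10:76531355-76531587 and chr13:45389492-45389741, all on the plus strand, and end before the annotated gene. Capitals mark CCAAT (read as ATTGG where it lies on the other strand) and, in Hmgcs1, TCACCCCAC, which begins 137 bases upstream of the start.
Hmgcs1: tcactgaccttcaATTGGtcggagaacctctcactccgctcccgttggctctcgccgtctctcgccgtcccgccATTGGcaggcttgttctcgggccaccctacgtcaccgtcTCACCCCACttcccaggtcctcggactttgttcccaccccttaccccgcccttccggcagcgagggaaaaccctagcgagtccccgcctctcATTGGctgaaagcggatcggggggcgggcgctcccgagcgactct
Lss: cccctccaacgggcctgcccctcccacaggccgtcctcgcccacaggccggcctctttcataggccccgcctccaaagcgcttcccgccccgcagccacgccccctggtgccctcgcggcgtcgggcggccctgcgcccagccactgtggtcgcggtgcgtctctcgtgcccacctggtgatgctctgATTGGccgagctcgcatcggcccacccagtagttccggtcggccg
Mylip: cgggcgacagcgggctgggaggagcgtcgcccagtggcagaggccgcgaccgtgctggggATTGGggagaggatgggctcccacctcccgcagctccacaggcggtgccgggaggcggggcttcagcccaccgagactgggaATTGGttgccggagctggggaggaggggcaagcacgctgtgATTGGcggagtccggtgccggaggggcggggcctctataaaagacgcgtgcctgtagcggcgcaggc
The stretch of Hmgcs1 holds 3 CCAAT matches, that of Lss 1 and that of Mylip 3, so CCAAT was found upstream of the genes that were lower and of the one that was higher.

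App was compared with wild type on each diet, and the libraries of one diet are not shared with the other. Both comparisons came from 1 fit that estimated the spread of each gene over all 4 groups, so they are not fully separate. On the control diet 7 of the 28 genes fell in App and 1 rose, by edgeR's quasi-likelihood test with Benjamini-Hochberg adjustment over all 22322 genes at 0.05. Those that fell were Hmgcs1, Idi1, Fdft1, Sqle, Lss, Msmo1 and Insig2, by 20.1% to 33.6%, and the one that rose was Mylip. The 8 calls were 28.6% of the 28 genes, where 17.5% of all genes were called. The 7 lower calls were 25% of them, where 7.22% of all genes were called lower, and the single higher call stood against 10.2% of all genes called higher. On the high-fat diet 6 fell, by 15.0% to 24.4% (Hmgcs1, Idi1, Sqle, Lss, Msmo1 and Hsd17b7), and Mylip rose. Those 7 calls were 25% of the genes against 19.3% of all genes, and the lower calls 21.4% against 8.54%. The median log2 fold change of the 28 was -0.30 on the control diet and -0.16 on the high-fat diet, while that of all genes was -0.05 and -0.02. Without WT_NCD 11 the control-diet median of the 28 was -0.17. In bulk RNA, fewer cells of a type and less RNA per cell cannot be told apart.

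**Figure D1:**
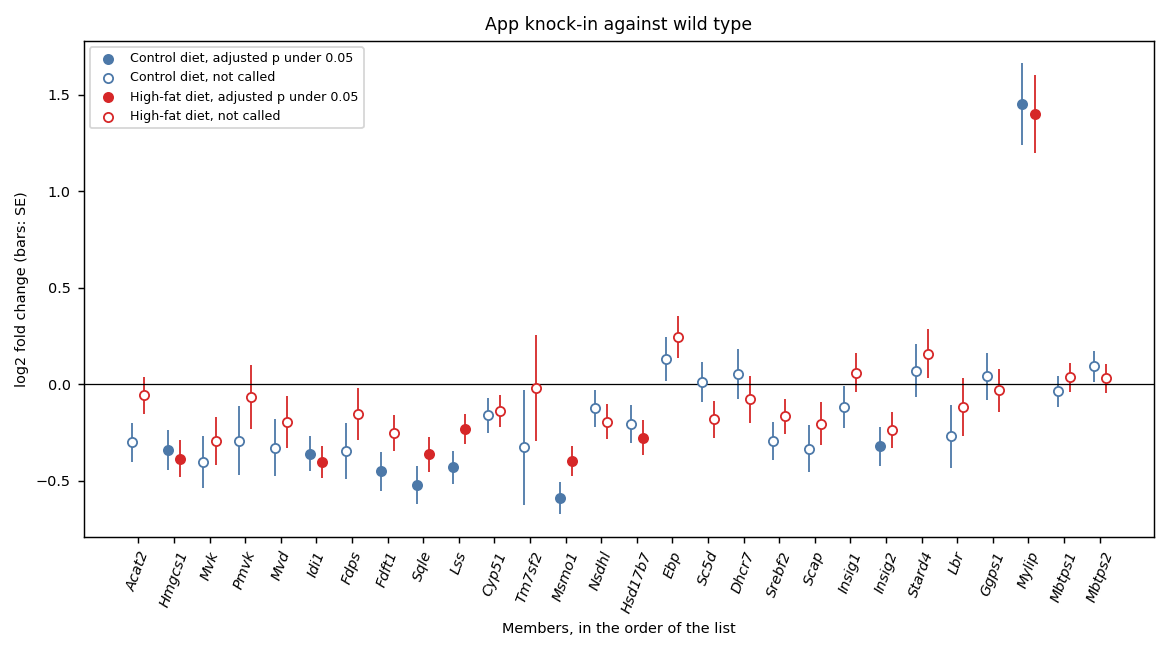
log2 fold change of App against wild type for each of the 28 genes (horizontal axis, in the order of the list) on the control diet (blue) and the high-fat diet (red); bars are standard errors, and filled points passed an adjusted p of 0.05. Most points lie below 0, the filled ones between Hmgcs1 and Insig2 with log2 fold changes from -0.59 to -0.23, and Mylip alone lies far above it at 1.45 and 1.40.

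In the mevalonate route all 7 genes had negative log2 fold changes on each diet, and Hmgcs1 and Idi1 passed the test on each. Hmgcs1 (ENSMUSG00000093930, chr13:119690379-119708260 in mm10) stood at 227, 223, 256 and 231 CPM in WT_NCD and at 171, 198 and 185 CPM in App_NCD (libraries in the order listed above). In the high-fat groups it stood at 248, 224, 243 and 200.2 CPM in WT_HFD and at 188, 166, 157 and 190.0 CPM in App_HFD. On each diet every App library was below every wild-type library. Hmgcs1 fell by 21.1% on the control diet (log2 fold change -0.34, SE 0.10, adjusted p = 0.0349), and it fell by 23.5% on the high-fat diet (-0.39, SE 0.10, adjusted p = 0.00992).

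Idi1, the isomerase that makes the isoprenoid unit ready for chain building (ENSMUSG00000058258, chr13:8885501-8892451), was 58.2, 56.0, 67.2 and 55.7 CPM in WT_NCD and 46.2, 49.0 and 43.2 CPM in App_NCD. In WT_HFD it was 55.7, 53.5, 55.6 and 50.9 CPM and in App_HFD 44.0, 36.4, 39.9 and 42.7 CPM. The genotypes did not overlap on either diet in these libraries. App_NCD 553 was at 69.2 CPM, above every wild-type library, a rank that rests on its TMM factor of 0.476. Idi1 fell by 22.1% on the control diet (-0.36, SE 0.09, adjusted p = 0.0132) and fell by 24.4% on the high-fat diet (-0.40, SE 0.08, adjusted p = 0.00310). Its call on the control diet was lost without WT_NCD 11 (-0.26, adjusted p = 0.0520) or without App_NCD 545 (-0.28, adjusted p = 0.104). That of Hmgcs1 on the control diet was lost in 8 of 15 fits that left out 1 library (WT_NCD 4, 11 or 12, WT_HFD 3 or 16, App_NCD 537 or 545, or App_HFD 560), with log2 fold changes of -0.33 to -0.26, and on the high-fat diet without App_HFD 560 (-0.31, adjusted p = 0.0633).

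The other 5 genes of the route did not pass the test on either diet. On the control diet Mvk had a log2 fold change of -0.40 (adjusted p = 0.0520) and Acat2, the thiolase that makes acetoacetyl-CoA, -0.30 (adjusted p = 0.0549). Mvd, mevalonate diphosphate decarboxylase, was at -0.33, Fdps, farnesyl diphosphate synthase, at -0.35 and Pmvk, phosphomevalonate kinase, at -0.29. Under the high-fat diet their log2 fold changes ran from -0.30 for Mvk to -0.06 for Acat2. Fdps and Pmvk each had 1 high library, WT_NCD 11, at 77.8 and 34.7 CPM, where the other 3 of WT_NCD were at 55.3 to 58.6 and at 18.4 to 20.2 CPM.

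From squalene onwards the calls lay in the opening steps and in the removal of methyl groups, 4 of 12 genes on each diet. Fdft1, squalene synthase (ENSMUSG00000021273, chr14:63145150-63179578), was 88.8, 84.5, 79.7 and 80.7 CPM in WT_NCD and 51.5, 68.9 and 62.8 CPM in App_NCD. It was 81.0, 76.2, 87.9 and 69.6 CPM in WT_HFD and 66.8, 63.3, 66.4 and 67.5 CPM in App_HFD. Both pairs of groups were separate, the second by little. In the control-diet comparison Fdft1 fell by 26.9% (-0.45, SE 0.10, adjusted p = 0.00689). With the high-fat diet its log2 fold change was -0.25 (adjusted p = 0.0698). It overlaps Ctsb on the other strand over 774 bp, and Ctsb was far more abundant (2362 CPM); the libraries were directional, but whether counting used the strand is not given in the sources used here.

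Sqle, squalene epoxidase and a rate-limiting enzyme of the later route (ENSMUSG00000022351, chr15:59315077-59331192), was 76.6, 68.2, 74.0 and 68.7 CPM in WT_NCD against 53.0, 51.5 and 45.4 CPM in App_NCD. In WT_HFD it was 66.1, 63.0, 64.7 and 52.3 CPM, and in App_HFD 43.1, 46.9, 48.2 and 53.0 CPM. The control-diet groups were far apart, while on the high-fat diet the lowest wild-type library (16) was just under the highest App library (561). Sqle fell by 30.5% (-0.52, SE 0.10, adjusted p = 0.00220) under the control diet, and fell by 22.3% with the high-fat diet (-0.36, SE 0.09, adjusted p = 0.0108).

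Lss, lanosterol synthase (ENSMUSG00000033105, chr10:76531588-76557138), was 53.2, 56.4, 66.6 and 60.5 CPM in WT_NCD and 42.7, 46.3 and 42.5 CPM in App_NCD. In WT_HFD it was 53.7, 57.3, 55.6 and 52.4 CPM and in App_HFD 45.5, 44.1, 47.0 and 49.6 CPM, so no App library reached a wild-type one on either diet. In the control-diet comparison Lss fell by 25.9% (-0.43, SE 0.08, adjusted p = 0.00284). In the high-fat comparison it fell by 15.0% (-0.23, SE 0.08, adjusted p = 0.0458), where 12 of 15 fits with 1 library left out lost the call (adjusted p 0.0513 to 0.216); it held without WT_NCD 11, App_NCD 537 or App_HFD 561.

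Msmo1, which oxidises the methyl groups of lanosterol's products (ENSMUSG00000031604, chr8:64718139-64733792), showed the largest decrease of the 28 on the control diet. It was 191, 172, 167 and 174 CPM in WT_NCD and 117, 119 and 115 CPM in App_NCD. In WT_HFD it was 159.9, 158, 182 and 153 CPM and in App_HFD 116, 126, 125 and 128 CPM. The App libraries of each diet lay close together and well under wild type, but App_NCD 553 was at 183 CPM, a level that rests on its TMM factor of 0.476. Msmo1 fell by 33.6% with the control diet (-0.59, SE 0.08, adjusted p = 0.000213) and fell by 24.2% with the high-fat diet (-0.40, SE 0.08, adjusted p = 0.00200).

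Hsd17b7 works on the same sterols as Msmo1 and Nsdhl (ENSMUSG00000026675, chr1:169949535-169969241). It was 16.9, 18.5, 19.1 and 16.9 CPM in WT_HFD and 12.9, 13.9, 15.9 and 16.1 CPM in App_HFD, and on the control diet 19.4, 19.6, 18.4 and 19.2 CPM in WT_NCD and 15.7, 16.5 and 17.5 CPM in App_NCD. The genotypes were separate on each diet. Hsd17b7 fell by 17.5% on the high-fat diet (-0.28, SE 0.09, adjusted p = 0.0411), a call lost in 13 of 15 fits with 1 library left out (adjusted p 0.0500 to 0.151) and held without App_NCD 537 or App_HFD 561; on the control diet the log2 fold change was -0.21 (adjusted p = 0.153).

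The last steps to cholesterol had values on either side of 0. On the control diet Ebp, the sterol isomerase, had a log2 fold change of 0.13, Sc5d 0.01 and Dhcr7, the reductase that finishes cholesterol, 0.05, and on the high-fat diet these were 0.24, -0.18 and -0.08. None of the 3 passed the edgeR test, where Ebp on the high-fat diet had an unadjusted p of 0.0392. By limma-voom, which called 7512 and 6718 of 22322 genes by diet, Ebp was called on each diet and Sc5d on the high-fat diet. Cyp51, lanosterol demethylase, was at -0.16 and -0.14, Nsdhl, a sterol dehydrogenase, at -0.13 and -0.20, and Lbr, a sterol reductase that also anchors chromatin, at -0.27 and -0.12, without a call. Tm7sf2, the other sterol reductase, was at -0.33 with an SE of 0.30 on the control diet. Its gene span overlaps that of Vps51 on the same strand over 532 bp. In WT_NCD 4 and App_NCD 537 Tm7sf2 was low (27.9 and 17.3 CPM) and Vps51 high (33.0 and 23.5 CPM), while in the other 13 libraries Tm7sf2 was 41.3 to 62.7 CPM and Vps51 6.20 to 19.6 CPM. WT_NCD 11 did not follow this pattern, with the highest Tm7sf2 (62.7 CPM) and also 19.6 CPM of Vps51. The division of reads between them is uncertain and was not tested. Ggps1, which makes the lipid attached to small GTPases, was at 0.04 and -0.03.

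**Figure D2:**
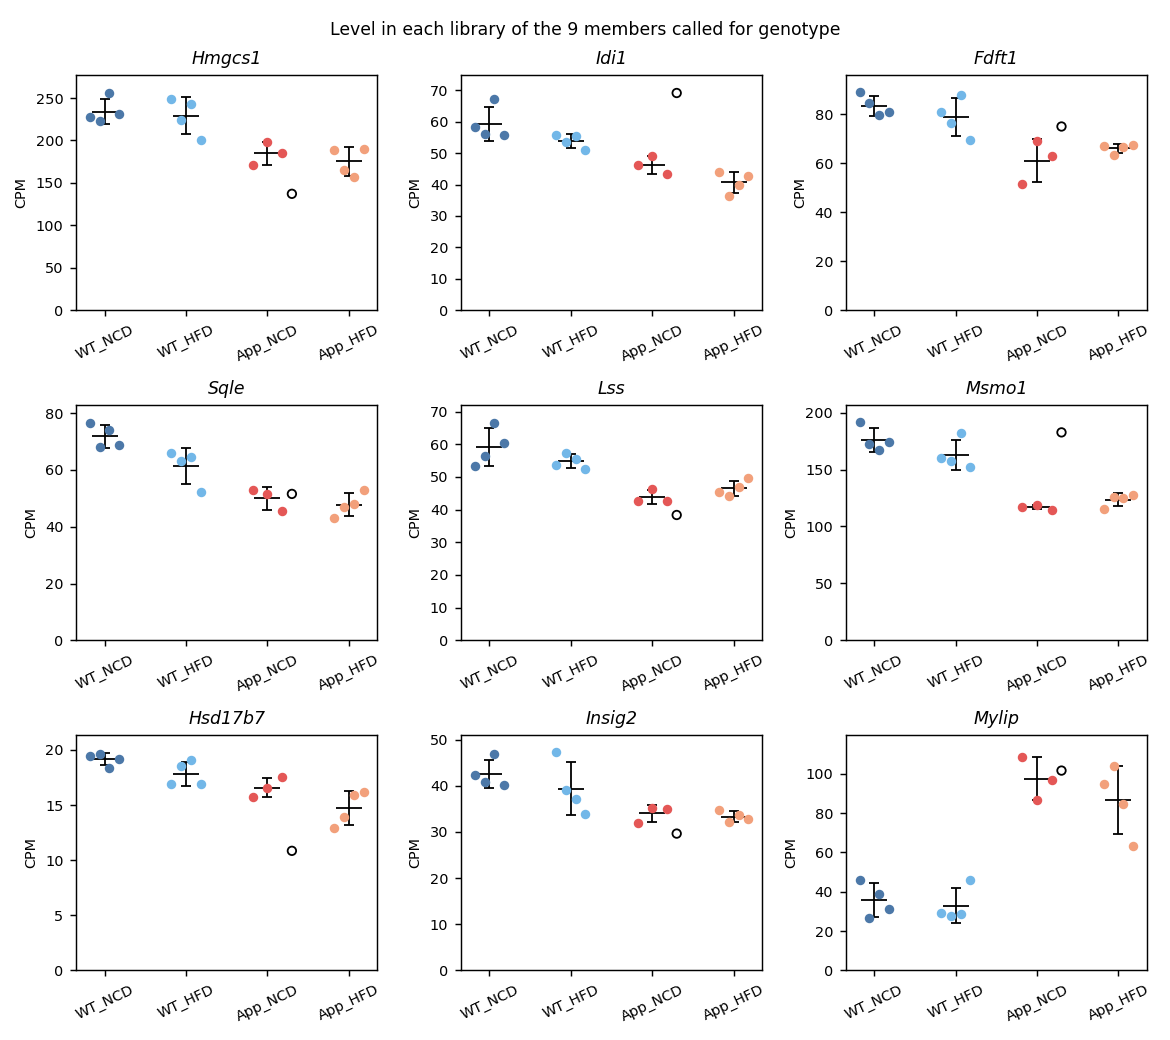
CPM in each library of the 9 genes that passed the genotype test on at least 1 diet; points are libraries, bars the mean and SD of the group, and the open circle is App_NCD 553, which enters neither. The App libraries lie below wild type in 8 panels, with some overlap for Sqle and Insig2 on the high-fat diet, and in Mylip they lie above it.

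Of the 6 genes of SREBP2 control, Insig2 passed the test on the control diet. Srebf2 (ENSMUSG00000022463, chr15:82147181-82205379) was 217, 239, 285 and 231 CPM in WT_NCD and 208, 194 and 192 CPM in App_NCD. It was 227, 215, 218 and 194 CPM in WT_HFD and 178, 192, 196 and 195 CPM in App_HFD. The control-diet groups were separate and the high-fat groups overlapped through WT_HFD 16. With the control diet the log2 fold change of Srebf2 was -0.30 (SE 0.10, adjusted p = 0.0507); it passed without WT_NCD 4 (-0.32, adjusted p = 0.0353) and was -0.18 without WT_NCD 11. With the high-fat diet it was -0.17 (adjusted p = 0.235). Scap, the escort that carries SREBP2 to the Golgi, had -0.33 (adjusted p = 0.0699) and -0.21 (adjusted p = 0.234).

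Insig2, a retention protein that is not driven by SREBP2 itself (ENSMUSG00000003721, chr1:121304353-121332589), was 42.3, 40.8, 46.8 and 40.1 CPM in WT_NCD and 31.9, 35.1 and 35.0 CPM in App_NCD, without overlap. It fell by 20.1% (-0.32, SE 0.10, adjusted p = 0.0420); 13 of 15 fits with 1 library left out lost that call (adjusted p 0.0512 to 0.147), and it held without WT_HFD 2 or App_HFD 561. Its high-fat values were 47.2, 39.2, 37.1 and 33.8 CPM in WT_HFD and 34.8, 32.2, 33.6 and 32.7 CPM in App_HFD (-0.24, adjusted p = 0.0944). Insig1 (ENSMUSG00000045294, chr5:28071363-28078662) was 176, 159.9, 142 and 163 CPM in WT_NCD, 122, 159.9 and 160.2 CPM in App_NCD, 135, 155, 152 and 156 CPM in WT_HFD, and 159, 141, 163 and 160.5 CPM in App_HFD. These groups overlapped on each diet, with log2 fold changes of -0.12 (95% interval -0.36 to 0.12) and 0.06 (-0.16 to 0.28). Mbtps1 and Mbtps2 had log2 fold changes of -0.04 and 0.09 on the control diet and of 0.03 and 0.03 on the high-fat diet. On the control diet, where edgeR called 1 of these 6 genes, DESeq2 called 2 (Srebf2 and Insig2) and limma-voom with quality weights 3 (Srebf2, Scap and Insig2). These fits also called more of all genes there, 4942 of 21181 by DESeq2 and 7512 of 22322 by limma-voom, against 3900 of 22322 by edgeR. On the high-fat diet edgeR called 0 of the 6, with 1 at an unadjusted p under 0.05, while DESeq2 called 0 and limma-voom the same 3 as on the control diet. Over all genes edgeR called 4307 of 22322 there, DESeq2 5157 of 23313 and limma-voom 6718 of 22322.

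Mylip, also called Idol, encodes a ubiquitin ligase that marks lipoprotein receptors for breakdown and is induced by sterol-sensing LXR receptors (ENSMUSG00000038175, chr13:45389742-45412022). It was 46.0, 26.4, 39.0 and 31.2 CPM in WT_NCD and 109, 86.8 and 96.9 CPM in App_NCD, with 102 CPM in App_NCD 553. In the high-fat groups it was 29.1, 27.6, 28.6 and 46.2 CPM in WT_HFD and 94.7, 104, 84.7 and 63.5 CPM in App_HFD. Every App library tested was above every wild-type library. So was 553, but its place rests on its TMM factor of 0.476. Mylip was 2.73-fold higher on the control diet (log2 fold change 1.45, SE 0.21, adjusted p = 0.000276) and 2.64-fold higher on the high-fat diet (1.40, SE 0.20, adjusted p = 0.000198). It passed in each of the 15 fits with 1 library left out, on each diet. Stard4, its neighbour in role, had log2 fold changes of 0.07 and 0.16 and passed on neither diet.

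The summed level of 12 microglial markers moved with Mylip. It was 4240 to 7060 CPM in WT_NCD and 12975 to 15771 CPM in App_NCD (2.94-fold, exact permutation p = 0.0571, the smallest that 3 against 4 allows), and 3158 to 6038 CPM in WT_HFD and 10618 to 17294 CPM in App_HFD (3.47-fold, exact permutation p = 0.0286, the smallest that 4 against 4 allows). Within wild type the libraries with the most microglial marker RNA, WT_NCD 4 (7060 CPM) and WT_HFD 16 (6038 CPM), also had the most Mylip of their groups. In App_HFD the library with the least, 561 (10618 CPM), had the least Mylip. The App_NCD libraries did not follow this order: 537, with the least microglial marker RNA (12975 CPM), had the most Mylip (109 CPM), and 538 (15622 CPM) and 545 (15771 CPM) had 86.8 and 96.9 CPM of it. App_NCD 553, with 8033 CPM of microglial markers, had 102 CPM of Mylip. None of the 12 microglial markers had a mean under 1 CPM, and 10 of 12 rose on each diet. Markers of the disease-associated microglial state rose as well, 10 of 10 on each diet, their sum 16.7-fold and 15.9-fold. The part of microglial RNA in the Mylip result was not tested.

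**Figure D3:**
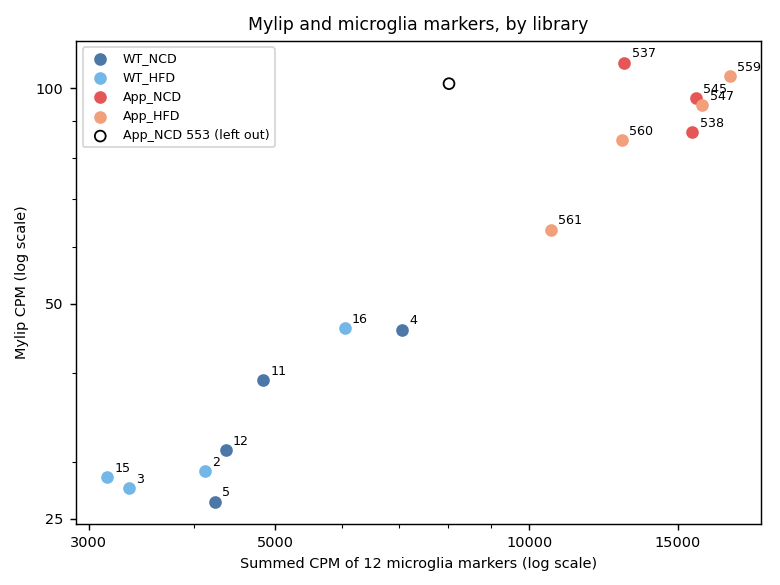
Mylip (CPM, vertical log axis) against the summed CPM of 12 microglial markers (horizontal log axis) in each of the 16 libraries, coloured by group and numbered; the open circle is App_NCD 553. Wild-type libraries lie at the lower left, up to 46.2 CPM of Mylip, and App libraries at the upper right, from 63.5 CPM.

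Without overlap between groups, 12 of the 28 genes were lower in App on the control diet (42.9%, and 13.6% of all genes) and 9 on the high-fat diet (32.1%, and 11% of all genes). Higher without overlap were 1 on the control diet, Mylip (3.6%, and 13.3% of all genes), and 2 on the high-fat diet, Ebp and Mylip (7.1%, and 13.7% of all genes). In the test, 5 of the 28 were lower on both diets (Hmgcs1, Idi1, Sqle, Lss and Msmo1) and Mylip was higher on both, and 0 were called in opposite directions. The 5 were 71.4% of the genes called lower on the control diet and 83.3% of those called lower on the high-fat diet. Over all genes the 829 called lower on both diets were 51.4% and 43.5%. These counts come from 1 fit that shares its estimate of the spread. With only the libraries of the 2 groups compared, the control diet called Sqle, Msmo1 and Mylip (2528 of 21195 genes called). The high-fat diet then called 9 of the 28, these among them (4816 of 20374). The 5 stand at the entry to the mevalonate route, at its isomerase, and at the steps from squalene to the demethylated sterols. Other genes of these steps, namely Acat2, Cyp51, Nsdhl, Tm7sf2 and Lbr, were called on neither diet.

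The summed oligodendrocyte markers moved in the same direction as the enzymes. The summed level of 20 oligodendrocyte markers was 51623 to 68685 CPM in WT_NCD and 39513 to 50733 CPM in App_NCD (log2 difference -0.41, exact permutation p = 0.0571), and 57943 to 69651 CPM in WT_HFD and 43169 to 56091 CPM in App_HFD (log2 difference -0.32, exact permutation p = 0.0286), so that App lay below wild type without overlap on each diet. App_NCD 553, at 70875 CPM, was above all of them, a rank that rests on its TMM factor of 0.476. Enpp2, a secreted lipid-producing enzyme that choroid plexus also makes, is among these markers and had means of 17502 CPM in WT_NCD, 9655 in App_NCD, 15328 in WT_HFD and 6831 in App_HFD. Without Enpp2, an alternative chosen after seeing the data, the sums overlapped on each diet, at 36553 to 49992 CPM in WT_NCD and 31154 to 41517 CPM in App_NCD (log2 difference -0.27, exact permutation p = 0.171). The high-fat groups then stood at 44302 to 52224 CPM and 36458 to 50090.5 CPM (-0.13, exact permutation p = 0.286). None of the 20 markers had a mean under 1 CPM; 0 of them passed the edgeR test on the control diet (8 at an unadjusted p under 0.05) and 2 fell on the high-fat diet (Enpp2 and Opalin).

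Many markers of several other cell types, though not all, also had lower levels in App. Endothelial markers fell in 5 of 8 genes on the control diet and in 4 on the high-fat diet, and pericyte markers in 6 of 8 and in 3. Of all genes, 7.22% and 8.54% were called lower. The summed endothelial markers overlapped on each diet (exact permutation p = 0.171 and 0.114). The summed pericyte markers were separate on the control diet (exact permutation p = 0.0571) and overlapped on the high-fat diet (p = 0.143). The summed neuronal markers, all low, were 5.40 to 6.32 CPM in App_NCD and 6.72 to 8.26 CPM in WT_NCD (exact permutation p = 0.0571), and 6.73 to 7.39 CPM in App_HFD and 10.2 to 14.5 CPM in WT_HFD (exact permutation p = 0.0286). Summed precursor markers overlapped on the control diet and were 611 to 707 CPM in App_HFD and 795 to 1051 CPM in WT_HFD (exact permutation p = 0.0286). The precursor marker Cspg4 went the other way, with means of 11.2 CPM in WT_NCD and 53.9 in App_NCD (log2 fold change 2.26, edgeR adjusted p = 1.79e-06). Its high-fat means were 11.8 CPM in WT_HFD and 51.9 in App_HFD. Summed astrocyte markers overlapped on each diet, with log2 differences of -0.62 and -0.47. Summed choroid plexus and ependymal markers were lower in App as well, at 9140 to 21074 CPM against 25505 to 30878 CPM on the control diet and at 7245 to 14953 CPM against 18366 to 37791 CPM on the high-fat diet. Most of this sum was Ttr, with a mean of 26498 CPM in WT_NCD where the whole sum had 28064. Ccdc153 and Tmem212 were not lower on the control diet (log2 fold changes 0.005 and 0.39). The part of these cell types in the results for the enzymes was not tested.

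When libraries were scaled to the oligodendrocyte markers in place of the usual TMM factors, none of the lower calls remained on either diet, and the 2 calls on each diet were Ebp and Mylip, both higher in App, where 13.7% and 15.7% of all genes were called. For the control diet the log2 fold changes of Sqle and Msmo1 then were -0.21 (adjusted p = 0.430) and -0.29 (adjusted p = 0.242), and with the high-fat diet -0.11 and -0.14. Ebp was 0.42 (adjusted p = 0.0382) and 0.49 (adjusted p = 0.0101). With Enpp2 left out of the scaling, also chosen after seeing the data, no enzyme was called lower either. The calls then were Mylip on the control diet and Ebp and Mylip on the high-fat diet, where 2661 and 2901 of 22322 genes were called. Scaling to all 20 markers moved the median of all genes up by 0.31 and 0.24 on the log2 scale and changed the split of calls over all genes from 2288 higher and 1612 lower to 2998 higher and 69 lower on the control diet, and from 2401 and 1906 to 3062 and 434 on the high-fat diet, where 1.94% of all genes were still called lower. Relative to the median of all genes, the median of the cholesterol genes was -0.24 under either scaling on the control diet, and -0.14 under either on the high-fat diet. A change of scaling shifts all genes of a library by about the same amount, so these differences could hardly change. They therefore do not test whether the decrease holds under oligodendrocyte scaling. The part of the lower oligodendrocyte marker level in the decrease of the enzymes was not tested further.

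**Figure D4:**
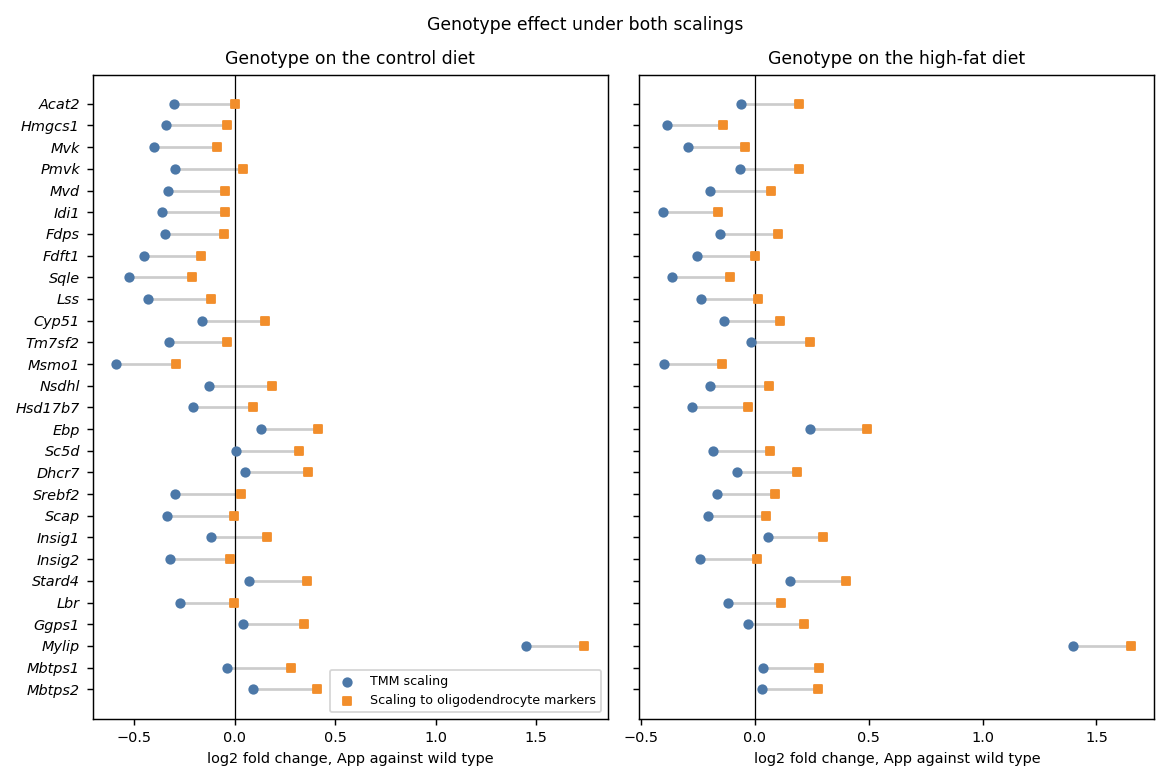
log2 fold change of App against wild type for the 28 genes on the control diet (left) and the high-fat diet (right), with TMM scaling (blue circles) and with scaling to 20 oligodendrocyte markers (orange squares). The squares lie to the right of the circles throughout, near 0 for most genes, and Mylip stays apart at 1.74 and 1.65.

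With App_NCD 553 included, Sqle (-0.48, adjusted p = 0.0151), Lss (-0.45, adjusted p = 0.0171) and Mylip (1.49) were called on the control diet, where 8.39% of all genes were (6.5% higher and 1.88% lower), and Mylip alone on the high-fat diet, where 7.14% were (5.09% higher and 2.05% lower). In that library Sqle (51.6 CPM) stood with the other App libraries, while Fdft1 (74.9 CPM) and Msmo1 (183 CPM) did not. Lss (38.3 CPM) and Srebf2 (51.5 CPM) were lower there than in any library tested. So were Hmgcs1 (137 CPM), Insig2 (29.6 CPM), Hsd17b7 (10.8 CPM), Insig1 (69.6 CPM), Cyp51 (40.7 CPM), Mvk (2.41 CPM), Pmvk (3.91 CPM), Acat2 (9.88 CPM) and Lbr (23.2 CPM). The same held for Mvd (2.15 CPM), Fdps (12.9 CPM), Ebp (12.4 CPM), Stard4 (8.06 CPM), Scap (32.8 CPM), Mbtps1 (41.0 CPM) and Tm7sf2, which was at 0. Idi1 (69.2 CPM), Nsdhl (62.7 CPM), Sc5d (264 CPM), Dhcr7 (143 CPM), Ggps1 (136 CPM) and Mbtps2 (106 CPM) were higher there than in any other library. All CPM of 553 carry its TMM factor of 0.476, which raises them, so its high ranks may rest on the scaling.

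Genes around the pathway were taken from 4 further lists, whose counts stand beside the shares of all genes called higher (10.2% and 10.8% by diet) and lower (7.22% and 8.54%). Of 12 genes of sterol sensing and sterol-driven degradation in the endoplasmic reticulum, 3 passed the test on the control diet. Among them were Srebf1, the sister gene of Srebf2 that drives fatty acid synthesis (304 ± 71.8 CPM in WT_NCD, n = 4, and 204 ± 6.53 in App_NCD, n = 3; -0.57, adjusted p = 0.0160), which fell, and Erlin1, an endoplasmic reticulum membrane protein (0.52, adjusted p = 0.0205), which rose. On the high-fat diet 1 fell and 2 rose: Pgrmc1, a haem-binding partner of sterol enzymes (-0.60, adjusted p = 0.0135), Erlin1 (0.41) and Ube2g2 (0.38). Of 13 genes of the isoprenoid side branches edgeR called 0 on either diet, with 3 and 0 at an unadjusted p under 0.05; the smallest adjusted p were those of Icmt (0.0698) and Rabggta (0.105) on the control diet and of Icmt (0.196) and Pdss2 (0.209) on the high-fat diet.

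Of 12 genes of sterol transfer inside the cell, 3 rose on each diet. They were Npc2, which takes cholesterol out of lysosomes (318 ± 32.7 CPM in WT_NCD and 656 ± 148 in App_NCD; 1.04 and, on the high-fat diet, 1.28), Osbpl8 (0.56 and 0.42) and Gramd1a (0.49 and 0.58), which shuttle lipids between membranes, while Gramd1c fell on the high-fat diet (-1.08). Of 10 genes of sterol esters and oxysterols, 4 rose on each diet: Nceh1 (0.93 and 0.80) and Lipa (0.65 and 0.74), which split cholesterol esters, Soat1, which makes them (0.67 and 0.58), and Ch25h, which makes an oxysterol that restrains SREBP2 (3.34 ± 3.16 CPM in WT_NCD and 20.8 ± 4.02 in App_NCD; 2.62 and 3.39). Another 3 of these, named after their values were seen, fell on the control diet: Nr1h3, an LXR receptor (-0.61), Cyp46a1, the neuronal cholesterol hydroxylase (-0.53), and Cyp7b1, an oxysterol hydroxylase (-0.62). The microglial marker sums given above rose in the same App libraries, and their part in these increases was not tested.

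The high-fat diet was compared with the control diet within each genotype. edgeR called 0 of the 28 genes and 0 of 22322 genes (0%) in wild type, in App and for the difference between them. At an unadjusted p under 0.05 there were 5 of the 28 and 1139 of all genes in wild type, 1 and 1576 in App, and 0 and 614 for the difference. DESeq2 called 0 of the 28 in each, with 40, 101 and 3 of all genes, and limma-voom 0 of the 28, with 5, 161 and 0. The control-diet libraries enter both the diet and the genotype comparisons.

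In wild type the smallest p belonged to enzymes of the route, and their values lay lower on the high-fat diet. Cyp51 was 80.4, 76.5, 89.0 and 79.6 CPM in WT_NCD and 75.3, 69.8, 74.1 and 62.0 CPM in WT_HFD, without overlap (log2 fold change -0.21, 95% interval -0.39 to -0.03, adjusted p = 0.915). Mvk was 15.8, 16.3, 21.4 and 14.7 CPM and then 14.8, 14.1, 13.8 and 12.4 CPM, which overlapped slightly (-0.30, adjusted p = 0.920). Sqle, with the values given above, was separate between the diets (-0.22, adjusted p = 0.920). Nsdhl was 32.3, 28.5, 27.8 and 29.2 CPM and then 25.3, 24.0, 27.7 and 25.5 CPM, just separate (-0.20, adjusted p = 0.954), and Pmvk 18.4, 19.7, 34.7 and 20.2 CPM and then 18.4, 17.3, 20.4 and 15.3 CPM, where WT_NCD 11 alone stood high (-0.38, adjusted p = 0.944). Srebf2 had -0.19 (adjusted p = 0.966). Over the 28 genes 22 were negative, with a median of -0.11 against -0.02 for all genes.

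In App the 6 smallest p belonged to Nsdhl, Cyp51, Idi1, Lbr, Hsd17b7 and Mvk. Nsdhl was 30.6, 25.8 and 24.5 CPM in App_NCD and 20.4, 23.3, 22.5 and 23.4 CPM in App_HFD, without overlap (-0.27, 95% interval -0.48 to -0.06, adjusted p = 0.554). Cyp51 was 72.3, 77.2 and 68.7 CPM and then 68.6, 62.2, 58.5 and 66.3 CPM, again just separate (-0.19, adjusted p = 0.712). Mvk was 12.2, 14.9 and 11.5 CPM and then 10.5, 11.3, 12.3 and 10.8 CPM, which overlapped (-0.20, adjusted p = 0.835). Idi1 (-0.18) and Hsd17b7 (-0.17), with the values given above, had negative log2 fold changes too. Lbr was 42.7, 58.7 and 70.6 CPM in App_NCD and 75.7, 61.5, 70.1 and 77.1 CPM in App_HFD, which overlapped (0.31, adjusted p = 0.745). Hmgcs1 had -0.08 (95% interval -0.30 to 0.15), Srebf2 -0.06 (-0.27 to 0.16), Insig1 0.08 (-0.16 to 0.32) and Sqle -0.06 (-0.28 to 0.15).

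**Figure D5:**
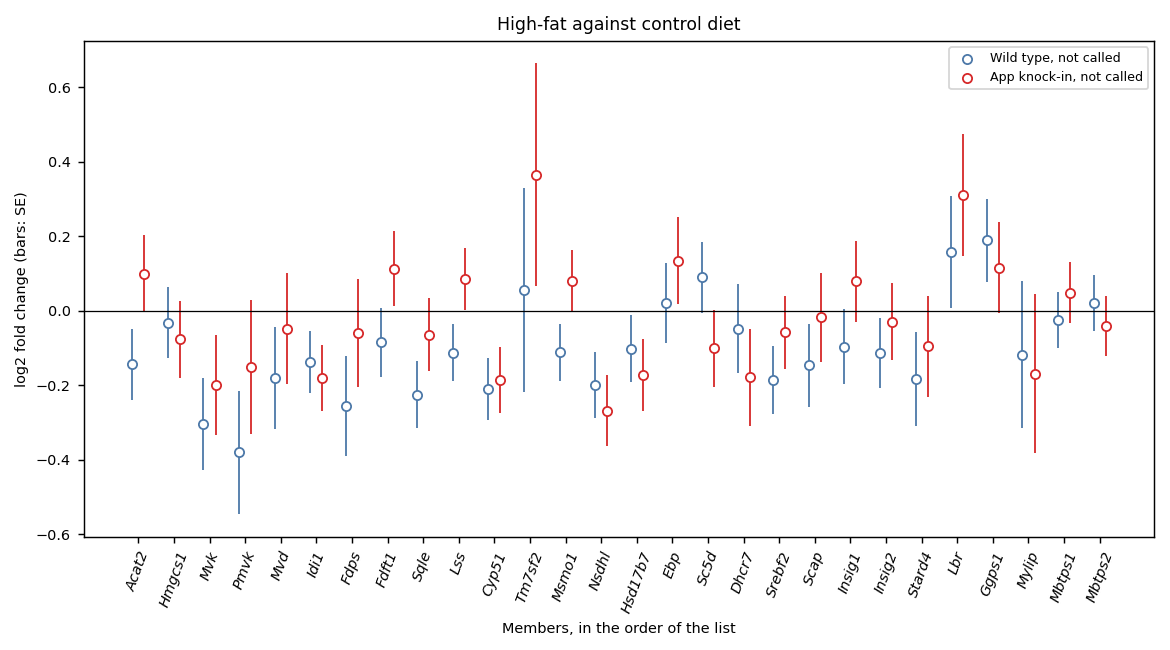
log2 fold change of the high-fat against the control diet for the 28 genes in wild type (blue) and App (red); bars are standard errors. No point is filled because none passed the test. Tm7sf2, which overlaps Vps51 on the same strand, has the widest bars (log2 fold change 0.37, SE 0.30 in App).

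The difference between the diet effects of the genotypes was tested as an interaction in the edgeR fit across all genes, and its 6 smallest p in the set belonged to Acat2 (0.24, SE 0.14), Lss (0.20, SE 0.11), Msmo1 (0.19, SE 0.11), Fdft1 (0.20, SE 0.14), Sc5d (-0.19, SE 0.14) and Sqle (0.16, SE 0.13), all with an adjusted p of 1. For Acat2 the libraries were 25.5, 24.2, 28.5 and 26.8 CPM in WT_NCD, 22.2, 23.5, 27.4 and 21.98 CPM in WT_HFD, 19.4, 24.0 and 20.4 CPM in App_NCD and 23.0, 21.4, 23.1 and 23.7 CPM in App_HFD, so the genotypes were separate on the control diet and overlapped on the high-fat diet. Sc5d was 123, 116, 93.7 and 118 CPM, 112, 116, 135 and 116 CPM, 124, 111 and 105 CPM, and 112, 98.8, 103 and 108 CPM in the same order, with all groups overlapping on the control diet. For Mylip the interaction was -0.05 (95% interval -0.69 to 0.59) and for Hmgcs1 -0.04 (-0.35 to 0.26), intervals that still allow sizeable differences. Of the 47 genes of the surrounding lists edgeR called 0 for the diet in wild type, in App or for the interaction, with 1, 3 and 2 at an unadjusted p under 0.05.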

How the data were processed

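The deposited table held estimated counts per gene. Per the submitters' processing notes, fastp 0.23.2, HISAT2 2.2.1, StringTie 2.2.1, bedtools 2.25.0 and the mm10 genome were used; the annotation and whether counting used the strand are not given in the sources used here. Estimated counts as deposited were rounded to whole numbers, scaled by TMM and tested with edgeR 4.0.16 (R 4.3.3; robust quasi-likelihood fit of 4 groups, 15 libraries, 11 residual degrees of freedom, filterByExpr), with Benjamini-Hochberg adjustment over 22322 genes at 0.05. App_NCD 553 was left out because the rule for the genes leaves it out. limma 3.58.1 (voom) and DESeq2 1.42.0 were alternatives, with other scalings, filters and libraries. The main steps were tested on simulated data. Counts give CPM after TMM scaling. Coordinates and exon lengths come from GENCODE M21 (mm10), which held 99.7% of the gene IDs. Summed marker levels were compared by two-sided exact permutation tests on log2 values.

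The 28 genes, the lists and the tests were chosen with earlier results of these data known. Library values were given for Srebf2, Insig1, Hmgcs1 and Sqle and for each gene called, or the 6 of smallest p where fewer than 6 were called. Of the surrounding lists up to 4 called genes per comparison were named, or the 2 of smallest p; for the diet comparisons counts alone are given. 1 gene of these lists is not reported here.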

Additional observations from a re-analysis of the deposited data

Results flagged for a closer look

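In groups of 4 libraries, 6 of 114 groups held a library far from the other 3 by Dixon's criterion at the 95% level, and chance marks about 1 in 20 groups. WT_NCD 11 was high for Pmvk (34.7 CPM, others 18.4 to 20.2) and for Fdps (77.8 CPM, others 55.3 to 58.6). WT_HFD 2 was high for Stard4 (18.8 CPM, others 16.2 to 16.4). WT_HFD 16 was high for Mylip (46.2 CPM, others 27.6 to 29.1) and for the sum of the disease-associated microglial markers (443 CPM, others 312 to 328). App_HFD 559 was low for the summed neuronal markers (6.73 CPM, others 7.37 to 7.39).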

How the results depend on the processing

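The calls among all genes tested stand in brackets, since the settings changed these too. On the control diet, where 8 of the 28 genes were called (3900 of 22322), 3 were called with all 16 libraries (1826 of 21768). There were 13 with library totals alone (4544 of 22322), 2 with scaling to oligodendrocyte markers (3067 of 22322) and 3 with only the libraries of the 2 groups (2528 of 21195). With 1 library left out there were 5 to 9 (2456 to 4189 of all genes). The count was 5 without WT_NCD 11 (3091 of 22137) or App_NCD 545 (2456 of 23026). On the high-fat diet, where 7 were called (4307 of 22322), 1 was called with all 16 libraries (1554 of 21768) and 13 by limma-voom (6718 of 22322). There were 2 with oligodendrocyte scaling (3496 of 22322). With 1 library left out there were 4 to 9 (3061 to 4921 of all genes), and 4 without App_HFD 560 (3856 of 22239). Scaling all 16 libraries to oligodendrocyte markers, chosen after seeing the data, gave 3 calls, all higher in App, on the control diet (3506 of 21768). It gave 1 on the high-fat diet (1357 of 21768). Leaving Enpp2 out of the oligodendrocyte scaling of 15 libraries, also chosen after seeing the data, gave 1 and 2 calls (2661 and 2901 of 22322). Leaving Enpp2 out of the marker sum gave a high-fat difference of -0.13 (exact permutation p = 0.286). The cause of these changes was not tested.

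Signs turned as follows. With all 16 libraries and oligodendrocyte scaling, the log2 genotype effect on the control diet was 0.27 for Idi1, 0.053 for Fdft1, 0.054 for Msmo1 and 0.038 for Insig2, and the interaction was -0.20 for Msmo1, -0.054 for Fdft1 and -0.023 for Sqle. With oligodendrocyte scaling, Srebf2 was 0.030 on the control diet, and on the high-fat diet Lss was 0.012 and Srebf2 0.087, with 15 or 16 libraries; with Enpp2 left out Srebf2 was 0.0012 and 0.042. With all 16 libraries the diet effect in App was 0.12 for Mvk, the interaction -0.0070 for Msmo1, and the control-diet difference 0.034 for summed neuronal and 0.12 for erythroid markers; that of microglial markers was 1.34 (exact permutation p = 0.0286). None of the 28 genes was called for diet or interaction by edgeR, DESeq2 or limma-voom.

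No paired analysis was possible because no replicate number is shared between the groups compared. With 3 or 4 libraries a group the precision is limited, and the effect of depth was not tested.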
